A study of Oryza sativa with 6 samples.

Results

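This account covers 91 array probes that were detected in both OsMADS29 lines and not in wild type, out of 42429 non-control probes on the array (0.214%). A probe was taken as detected on an array where at least 0.5 of its unflagged spots carried the scanner software's flag for a signal well above background. The members had to pass on all 4 line arrays and fail on both wild-type arrays. They lay at 85 rice loci, and 1 member was a microRNA probe. The opposite pattern, detected on both wild-type arrays and on no line array, was met by 129 probes.

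The 6 samples were cells of the nucellar projection, captured by laser from seeds of Oryza sativa at 3 days after flowering, with RNA amplified in 2 rounds and hybridised to 1-colour (Cy3) Agilent arrays. Wild type was ZH11, and the mutants were line 2 and line 14 of A-OsMADS29, with 2 arrays for each of these 3 groups. All plants were of the ZH11 background and were grown under the same conditions, and the labels call both lines OsMADS29 mutants without spelling out the prefix or saying what was altered. The labels name independent biological samples, and give neither the number of plants or seeds per sample nor whether a line is a single insertion event.

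MADS-box proteins such as OsMADS29 are transcription factors, and the study concerns this one in the breakdown of the nucellus, the maternal tissue around the embryo sac. The nucellar projection is the part of that tissue next to the vascular bundle, through which nutrients pass to the endosperm, and in cereals it is removed by programmed cell death as the grain fills. In these bulk samples fewer cells of a type and less RNA per cell cannot be told apart.

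The probe names give a locus ID and no gene name or function, and the reference table of 39387 genes matched 0 of the member loci. The loci are therefore given by ID, in which the first digits are the chromosome. The files hold no probe sequence, so none is shown.

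Signals are given on a log2 scale relative to the 75th percentile of the array, so that 0 stands for that percentile. Between 72.8% and 79.8% of probes were detected per array and no spot was saturated. The lowest spot well above background lay at -7.24 and -7.70 on the wild-type arrays, at -7.18 and -8.67 in line 2 and at -6.53 and -6.57 in line 14, so the arrays did not share 1 detection limit. Wild type and line 2 were on slide 1 and line 14 was alone on slide 2. Wild-type replicate 1 correlated least with the other arrays, with r from 0.901 to 0.922 across 32357 probes, against 0.934 to 0.962 for the other pairs.

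OsMADS29 itself, at Os02g0170300 by general knowledge, was no member. The locus had 2 probes on the array, of which 1 was read. The log2 signal of that probe was 0.38 and 0.88 in wild type, -0.27 and 0.89 in line 2 and 0.17 and 0.00 in line 14. The line 2 arrays overlapped wild type, and both line 14 arrays lay below both wild-type arrays. Both lines together differed from wild type by -0.43 (limma adjusted p = 0.885). Of the 13 loci listed as markers of the starchy endosperm from general knowledge, 0 were members and 10 were detected on all 6 arrays. Their summed signal, in units of the 75th percentile, was 24.3 and 31.8 in wild type, 36.8 and 21.0 in line 2 and 27.8 and 31.8 in line 14. This sum rests mostly on the brightest loci, and single markers moved apart from it. Of the 10 detected on all 6 arrays, 3 had every line array above both wild-type arrays, where 7.94% of all tested probes did. Their log2 differences were 2.32 at Os02g0252400, 1.66 at Os07g0182000 and 1.44 at Os10g0400200. Each marker locus was read at a single probe, although Os06g0133000, for example, had 8 on the array. Os06g0133000 read -1.34 and -1.30 in wild type, -1.09 and -6.99 in line 2 and -6.87 and -6.40 in line 14, so that it was lower on 3 of the 4 line arrays. In limma 0 of the 13 were called after adjustment, and the part of these cells in the members' signal was not tested. The 4 markers of ovule and nucellus, the 4 of sugar delivery and the 1 of green pericarp were all detected on all 6 arrays. Summed over the 4 ovule and nucellus markers, of which OsMADS29 itself is 1, the signal was 34.2 to 46.4 in wild type and 39.7 to 44.6 in the lines. The sugar delivery markers summed to 77.6 and 90.4 in wild type and 60.7 to 95.8 in the lines, and the pericarp marker stood at 3.31 and 6.56 in wild type and 4.60 to 13.0 in the lines. In each list the sums of the wild-type and line arrays overlapped.

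Because the members were chosen by detection on these arrays, the size of their difference from wild type is a description and carries no test. Members were ranked by the smallest of the 4 line signals over the larger of the 2 wild-type signals. This ratio was 16-fold or more for 11 members, from 4-fold to under 16-fold for 39, from 2-fold to under 4-fold for 25, and from 1 to under 2 for 15. In 1 member it was under 1. The median was 4.33-fold. The line arrays thus all lay above both wild-type arrays in 90 of the 91 members, as the rule nearly requires, while 7.94% of all probes tested met that condition. Taken array by array, the median member had a log2 signal of -8.87 or -8.97 in wild type. In line 2 that median was -5.37 or -5.38, and in line 14 it was -4.85 or -4.99.

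The largest ratio was that of Os03g0663900 on chromosome 3. Its log2 signal was -9.43 and -9.89 in wild type, -0.44 and -0.34 in line 2 and 1.12 and 0.83 in line 14. It therefore went from the dim end of the array to near the 75th percentile in line 2 and above it in line 14. As wild type gives only a bound, the dim arrays were set at the higher of their own signal and the lowest spot well above background. Against that floor the probe was at least 135-fold higher in line 2 and at least 349-fold higher in line 14. After normexp background correction, whose offset of 50 raises dim signals, its log2 difference from wild type fell from 9.95 to 6.49, so the folds hold for the processed signal alone.

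Os07g0511400 on chromosome 7 followed, with -9.50 and -9.89 in wild type, -0.16 and -0.39 in line 2 and -0.77 and 0.87 in line 14. It was at least 147-fold higher in line 2 and at least 184-fold higher in line 14. The lines overlapped here, whereas for Os03g0663900 both line 14 arrays lay above both line 2 arrays. Os09g0347300 came next, with -8.33 and -8.69 in wild type, -1.51 and -1.08 in line 2 and -1.12 and -2.02 in line 14, at least 72.3-fold and 59.7-fold higher in the lines. This member differed from the first pair in that its dim wild-type spots still carried the flag for a positive and significant signal on both arrays. It was weakly present in wild type by that flag.

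The next members were far closer to the detection limit in the lines. Os07g0543300 read -9.32 and -9.84 in wild type, -2.66 and -2.95 in line 2 and -3.73 and -2.50 in line 14, at least 25.3-fold and 20.5-fold higher. Os07g0589200 read -9.44 and -9.82 in wild type against -4.41 and -2.47 in line 2 and -3.96 and -3.48 in line 14. In both of these the line 2 and line 14 arrays overlapped. Os08g0508000 lay at -9.20 and -9.56 in wild type, at -2.90 and -3.53 in line 2 and at -2.53 and -4.36 in line 14, again with overlapping lines. Os01g0594300 was different: it read -9.25 and -9.92 in wild type, -4.43 and -4.08 in line 2 and -2.52 and -2.86 in line 14, so that all line 14 values exceeded those of line 2. It was at least 9.31-fold higher in line 2 and at least 27.5-fold higher in line 14.

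The remaining members of the first 15 had lower mean line signals than those named so far. Os11g0150700 was at least 8.90-fold higher in line 2, with line values from -4.89 to -3.07. Os06g0302000 ranged from -5.02 to -3.07 over the line arrays and Os04g0607500 from -4.55 to -2.81. Os03g0768900 spanned less than these 3, with -8.44 and -8.52 in wild type, -4.48 and -3.20 in line 2 and -3.71 and -3.46 in line 14. Its wild-type signal was positive and significant on both arrays, as for Os09g0347300.

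At 4 loci more than 1 probe was a member, 9 probes in all. The 3 probes of Os05g0531200 each read between -9.80 and -8.85 in wild type, -5.54 and -4.19 in line 2 and -4.89 and -1.98 in line 14. On each of them line 14 replicate 1 was the highest array and the other line 14 array lay among the line 2 arrays. The 2 probes of Os10g0492600 gave lines minus wild type of 5.48 and 5.78, with line 2 replicate 2 the lowest line array on both. The 2 probes of Os02g0662000 gave 5.50 and 5.37, with line 2 replicate 1 the lowest on both. At Os07g0676600 the values were 4.60 and 4.30, and the 4 line arrays spanned only 0.50 and 0.59 on the 2 probes. Probes of 1 locus share their RNA and may share sequence, so they are not independent measurements. The lowest line array was the same on every probe of a locus at all 4 loci.

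Other probes of the member loci were not used by the rule. Of the 85 loci, 51 had a single probe on the array and 30 had probes that were not members, 57 in all. Of these 57, 23 were detected on both wild-type arrays, 13 on 1 and 21 on neither. Member probes are undetected in wild type by the rule, so only the 30 loci with other probes are informative here. At 24 of these 30 at least 1 other probe was detected on 1 or both wild-type arrays, and at 14 on both. No probe was detected on either wild-type array at 61 of the 85 loci, but these include the 51 with a single probe.

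The 23 other probes detected on both wild-type arrays had a median difference, lines minus wild type, of 0.29 on the log2 scale, with a range of -1.12 to 3.70. All 23 were also detected on all 4 line arrays. At Os01g0201700 the member probe read -8.19 and -7.25 in wild type and -6.75 to -5.52 in the lines, while its other 2 probes were detected on all 6 arrays and differed by 0.41 and -0.23. At Os06g0708100 the member probe differed by 2.93 and the other probe by -1.12. Os05g0511000, with 3.97 at its member, had 2 other probes at -0.23 and -0.19, and Os02g0176100, with 2.55 at its member, had 2 at -0.03 and -0.22. At these loci the other probes were thus bright in wild type and only the member was dim.

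On 8 of the 23 other probes detected on both wild-type arrays, the line arrays all lay above both wild-type arrays, where 7.94% of all tested probes did. The largest difference among the 23 was at Os04g0107600. Its member probe read -9.16 and -8.37 in wild type, -4.94 and -4.35 in line 2 and -4.24 and -3.76 in line 14. The other probe was detected in wild type, at -6.55 and -6.97, and read -3.37 and -3.09 in line 2 and -3.05 and -2.71 in line 14. The groups did not overlap on either probe, and the differences were 4.44 and 3.70. This locus therefore had a measured wild-type level and not only a bound.

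The 21 other probes detected on neither wild-type array had a median difference of 3.12. On 15 of them the line arrays all lay above wild type, where 7.94% of all tested probes did. Most of the 21, and most of the 15, were probes of Os04g0423400 or Os06g0726200. Probes of 1 locus are not independent, so the median and the count largely repeat these loci. On 17 of the 21 the probe was detected on 1 to 3 line arrays, and 4 were detected on no array. Os04g0423400, whose member read -7.70 and -8.03 in wild type, -6.26 and -5.51 in line 2 and -3.48 and -4.21 in line 14, had 7 other probes. On 6 of them the difference was 2.72 to 3.69, with line 2 replicate 1 the only line array not detected. The 7th was detected on wild-type replicate 2 and on no line array.

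Over the 57 other probes the line mean was higher for 44, where 54.0% of all probes had a higher line mean, and the line arrays all lay above wild type for 30, where 7.94% of all tested probes met that second condition. These probes stand on the same arrays and loci that chose the members, so these counts describe the loci and are no test of them.

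At 3 members the line arrays split across the lines, with line 2 replicate 2 and line 14 replicate 1 both at least 1 log2 unit above the other line arrays. This pattern was picked out after the values were seen, and 0.386% of all tested probes met it. Os06g0726200 read -9.24 and -8.74 in wild type, -6.52 and -0.20 in line 2 and -1.67 and -4.59 in line 14. Os10g0380100 read -5.50 and -1.56 in line 2 and -1.58 and -4.96 in line 14, and Os09g0248100 read -6.36 and -2.89 in line 2 and -3.32 and -5.32 in line 14. In these members the replicates of a line differed more than the lines did. The 7 other probes of Os06g0726200 included 5 that were undetected in wild type, with differences of 3.35 to 4.99, and on all 5 line 2 replicate 2 was the highest array. The remaining 2 probes of this locus were detected on all 6 arrays, and the wild-type and line arrays overlapped on both. They differed by 2.62 and, for the one in the 5' UTR and coding sequence, by 0.27.

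Over all members, the median gap between replicates was 0.98 in line 2, 0.57 in line 14 and 0.54 in wild type, against 0.39, 0.38 and 0.52 for all tested probes. The 4 line arrays spanned a median of 1.62 at the members and 0.79 over all tested probes. They spanned more than 2 log2 units at 29 members and less than 1 at 13. Members were thus more scattered among the line arrays than all tested probes, but the sets were not matched for brightness. The median member read between -5.38 and -4.85 on the line arrays, whereas 28451 of the 32420 tested probes were detected on all 6 arrays. The spread of other probes as dim as the members was not computed, so whether the scatter goes with dim signal was not tested.

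The rule did not set line 14 against line 2, but each line array had to pass its own detection limit. Those limits were highest in line 14, so dim members had to be brighter there. The counts that follow are therefore not free of the rule. No member was called (0 of 91, limma with Benjamini-Hochberg adjustment over 32420 probes), as for all probes tested (0%). At an unadjusted limma p under 0.05 there were 17 members, or 18.7%, and 3.42% of all probes, and 14 of the 17 were higher in line 14. The differences ran from -1.04 to 3.29. Line 14 had the higher mean in 69 members, or 75.8%, where 50.6% of all probes did, and the median difference was 0.47 on the log2 scale against 0.01. Both line 14 arrays lay above both line 2 arrays in 27 members, with 15.4% of all probes doing so, and below them in 5, with 16.2% of all probes doing so.

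The line 14 arrays also had the highest detection limits, which a member had to exceed. At the 48 members that stood above 1 common limit of -6.25 on all 4 line arrays, line 14 was higher in 33, or 68.8%, where 51.1% of all probes above that limit had a higher mean in line 14. The median difference of these 48 was 0.30 against 0.01. An unadjusted limma p under 0.05 was found for 3 of the 48 and for 3.42% of all tested probes, dim ones included. The share among all probes above the common limit was not computed, so nothing is read from the 3. Line 14 was alone on its slide, so a difference between the lines cannot be told apart from one between slides.

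The smallest p in this comparison was that of Os05g0417400, with -7.03 and -8.54 in line 2 and -4.66 and -4.34 in line 14. It differed by 3.29 (95% confidence interval 1.90 to 4.67, limma adjusted p = 0.762). In line 2 it lay so near the limit that no fold over the wild-type floor could be given, and in line 14 it was at least 7.85-fold higher. Os02g0176100 followed with -6.64 and -7.20 in line 2 and -4.71 and -4.69 in line 14, a difference of 2.22 (95% confidence interval 1.12 to 3.32, limma adjusted p = 0.871). At both, the line 14 arrays lay above the line 2 arrays, and neither passed the adjusted test. The median 95% interval of a member reached 1.42 to either side of the difference, before any adjustment over probes. With the adjustment even the difference of 3.29 was not called, so differences well above a few fold could also be missed here.

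In the fit of both lines against wild type, 17 of the 91 members were called higher (limma adjusted p under 0.05), where 0.0709% of all probes tested were called higher and 0.139% in either direction. At an unadjusted p under 0.05 there were 90 members and 7.7% of all probes. Since the same difference chose the members, nothing is read from this count. Of the 17, 9 were among the first 15 by rank, and the last stood at rank 39. Line 2 taken alone, which shares its slide with wild type, gave 1 called member (0.00617% of all probes higher), and line 14 gave 7 (0.0247% of all probes higher, 0.0432% in either direction). Those comparisons share the wild-type arrays. Without wild-type replicate 1, line 2 replicate 1, line 2 replicate 2 or line 14 replicate 2 the 17 became 0, and without line 14 replicate 1 they became 2.

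Dim did not mean absent in wild type. The software's weaker flag, for a signal that is positive and significantly above background, was set on both wild-type arrays for 42 members, on 1 for 25 and on neither for 24. Among the first 15 by rank it was set on neither wild-type array for 11. Of the 41 members with a ratio under 4-fold, 26 carried it on both. So the members ran from probes at background in wild type to probes with a weak wild-type signal just under the limit.

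The members just inside the rule show how narrow it can be. Os11g0659200 read -9.38 and -7.88 in wild type, -6.86 and -7.63 in line 2 and -5.46 and -5.76 in line 14. Os01g0510200 read -8.05 and -7.89 in wild type, -5.13 and -7.79 in line 2 and -5.23 and -5.97 in line 14. In the last member, Os10g0525500, line 2 replicate 2 was counted as detected at -7.99 although wild-type replicate 1 was not detected at -7.33, so the groups overlapped. The ratio of these 3 members was 1.19, 1.07 and 0.635.

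Just outside, 923 probes missed the rule on exactly 1 array. Of these, 673 did so only because wild-type replicate 2 detected them and 102 only because wild-type replicate 1 did. Line 2 replicate 1 was the missing array for 33, line 2 replicate 2 for 6, line 14 replicate 1 for 49 and line 14 replicate 2 for 60. Without wild-type replicate 2 the rule would thus take 764 probes in place of 91, and without wild-type replicate 1 it would take 193. Without line 14 replicate 1 it would take 140, and without line 14 replicate 2 it would take 151.

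Some probes left out this way had larger ratios than most members. Os03g0342100 had 2 such probes, with -9.10 and -7.47 in wild type, -2.09 and -1.11 in line 2 and -0.60 and -1.11 in line 14 on the first, a ratio of 41.7. The second had a ratio of 31.3. Both were left out because they were detected on wild-type replicate 2. Os06g0602900, detected on wild-type replicate 1, had a ratio of 10.5, with -6.36 and -9.77 in wild type and line values from -2.97 to -1.33. With 1 common limit of -6.25 on all arrays, a choice made after the data were seen, 131 probes met the rule, of which 48 were members and 83 were not.

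By the terms in the probe names, 65 members were of the source mRNA (71.4%, against 82.2% of all tested probes), 15 of COMBINER_EST (16.5% against 12.7%) and 10 of COMBINER, a term of 4.80% of tested probes. The names do not define these terms. The 11 members on chromosome 7 and the 9 on chromosome 10 made up 12.1% and 9.89% of members, where those chromosomes held 7.63% and 4.89% of tested probes. Chromosomes 1 and 2, with 10 and 6 members, held 14.6% and 12.1% of tested probes. No test was made of these shares. Members with fewer than 20 other array loci between them formed 4 pairs, of which the closest, Os05g0415600 and Os05g0417400, had 6 loci between them. How many such pairs loci picked at random would form was not computed, so nothing is read from the 4.

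The 1 microRNA member was a probe for the 3' flanking sequence of miR164e, which the probe name places on chromosome 3. In plants, microRNAs of the miR164 family direct the cleavage of transcripts that encode NAC-domain transcription factors. The probe read -9.06 and -9.81 in wild type, -6.04 and -8.56 in line 2 and -5.75 and -4.34 in line 14. Line 2 replicate 2 thus lay within 1 unit of wild-type replicate 1, though not of wild-type replicate 2. The probe for the mature sequence of miR164e was detected on 1 wild-type and 1 line array, at -5.71 and -8.53 in wild type and -8.93 to -8.11 in the lines. The 5' flank was detected on no array. The signal that brought this locus among the members was therefore that of the 3' flank alone.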

How the data were processed

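Per the file headers, 6 arrays of the Agilent design 15241 were read in 1 colour by Feature Extraction 10.7.3.1. The processed signal that the authors deposited is an intensity with background removed and a spatial trend taken out, on each array by itself. The deposited flags are a score of 0 or 1 per spot. The value table of the authors holds log2 values, and its sorted columns differ by at most 0.0078, as after quantile normalization.

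Control spots and outlier spots (0.0983% to 0.183% per array) were left out. For each spot, the log2 processed signal was set against the 75th percentile of its array, and spots of a probe were averaged. Probes detected on both arrays of at least 1 group were kept (32420 of 42429). The fit, 1 per probe over the 6 arrays, used limma 3.58.1 (R 4.3.3) with group means and moderated variances, and p-values were adjusted by Benjamini-Hochberg with a threshold of 0.05. It was tested on simulated data.

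The members, marker lists and named loci were chosen with earlier results of these data known. Named were the first 15 and last 3 members by rank, loci with several member probes, the 2 members with the smallest p between the lines and 3 probes just outside the rule. Others were picked after their values were seen. Alternatives changed scaling, background correction, filter, blocks, flags and arrays. The number of arrays limits the precision. With group means in the fit, p-values measure the spread between samples within a group and not the spread between lines.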

Additional observations from a re-analysis of the deposited data

How the results depend on the processing

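The 91 members became 374 with line 2 alone and 149 with line 14 alone against wild type, and 97 to 764 with an array left out. They were 90 with all spots required, 91 with outlier spots kept, and 98 with the positive and significant flag, of which 24 were members. For both lines against wild type, the 45 probes called (23 higher, 22 lower) became 1 without a filter on dim probes, 0 among probes detected on all 6 arrays, 0 with the replicate number as a block, 2 with slide as a block, which leaves line 2 against wild type, and 0 to 255 with an array left out. They split into 34 higher and 28 lower after median scaling, 20 and 27 after quantile normalization, 20 and 30 in the authors' table and 21 and 43 after normexp. The 17 members called became 6 after normexp, 8 with an intensity trend, 1 without the filter, 0 with the replicate block, 1 with slide as a block and 0 to 17 with an array left out. Fits without an array have 1 group of 1 array and fewer degrees of freedom. Line 14 against line 2 gave 0 calls under every alternative run, and with slide as a block it could not be fitted. All 27 named log2 differences kept their sign under every alternative run. For the differences from wild type the rule nearly set that sign, and those between the lines were picked for their small p. The kept sign is therefore no support for them, and the 17 calls became 0 with the replicate block. Arrays with the same replicate number deviated together little (r = 0.07, 0.05 and 0.06 between groups). Whether samples of the same number shared a step of preparation was not tested. Signal over background limits what is known of wild type: each member there is under or near the limit.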
